A study of Homo sapiens with 5 samples.

Results

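The 10 genes described here encode enzymes that make cysteine and sulfide from homocysteine, build and recycle glutathione, and form the core of the oxidative stress response run by the transcription factor NRF2. They are CBS, GCLC, GCLM, GSS, GSR, MPST, TST, NQO1, TXNRD1 and SRXN1, chosen by symbol as a group of related enzymes, and they are 10 of the 26364 genes listed in each of the 5 count files. A filter on low counts kept 9 of the 10, and CBS was the member that did not pass it.

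Methionine is the usual source of sulfur for this network. Its demethylated product, homocysteine, is turned into cystathionine and then cysteine by transsulfuration, and cysteine is the scarce building block of glutathione, the main small thiol of the cell. NRF2 is held at a low level by its inhibitor KEAP1 and, when released, binds antioxidant response elements in the promoters of genes for glutathione synthesis and thiol reduction. In intestinal epithelium and colon cancer the same genes are known for their part in handling peroxides and electrophiles.

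RNA was sequenced from tumours of HT-29, an established cell line from a human colon cancer, which grew under the skin of female NOD SCID mice, bought at an age of 5 weeks, whose strain lacks T and B cells, and the mice were fed 1 of 4 foods. The groups were food lacking methionine, tryptophan and niacin (the combined omission, 1 library), food lacking tryptophan and niacin (1 library), food lacking methionine (2 libraries) and normal food (1 library). No group carried an added genetic change or drug. Whether the 2 methionine-free libraries stem from different mice is not labelled, so the p-values below measure only how far these samples vary, and that variation may be technical. In the pairwise and interaction tests of edgeR it is a spread shared over genes, and not that of the gene named. Titles of the normal and combined-omission libraries are of a shorter style than the rest, and wherever title styles differ, diet and any difference in how samples were handled cannot be told apart.

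Library totals were 433930 counts in the combined omission, 613604 in the tryptophan/niacin-free library, 553502 and 678618 in methionine-free replicates 1 and 2, and 1088084 on normal food. Levels are given in CPM, counts scaled to library size, after TMM scaling. A single count was worth between 0.909 CPM (normal food) and 2.27 CPM (combined omission), and intervals on counts cover counting error only. All 11 epithelial markers of HT-29 had counts in every library, with summed levels between 13280 and 16910 CPM and the highest in methionine-free replicate 2. Human stromal markers were sparse: PTPRC, CDH5, HBA1 and HBB were at 0 in all 5 libraries, and 1 of the 7 fibroblast markers passed the filter. Host cells in these tumours are mouse cells, and the files count human genes on a human genome build. Low values of these markers therefore do not measure how much host tissue was present. Leukocyte and macrophage markers (5 genes, nearly all CD68) summed to 34.0 CPM in the combined omission, 39.2 CPM in the tryptophan/niacin-free library, 43.0 and 47.6 CPM without methionine, and 62.7 CPM on normal food. Skeletal muscle markers (6 genes) summed to 42 counts in the tryptophan/niacin-free library, from 4 of the genes, against 0 to 2 in each of the others. Their part in the values below was not tested. In bulk tumour, fewer cells of a type and less RNA per cell cannot be told apart.

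The levels of the 9 measured members spanned a wide range. Per kilobase of transcript, NQO1 stood highest at a mean of 119 CPM per kb over the 5 libraries, and GCLM lowest at 7.22. Between them lay TXNRD1 (60.3), GSS (50.97), MPST (48.5), TST (47.4), GSR (39.4), SRXN1 (19.9) and GCLC (17.1). The range of NQO1 over libraries, 94.96 to 163 CPM per kb, did not meet that of any other member, nor did the range of GCLM, 4.86 to 10.1. Neighbours from TXNRD1 through GSS, MPST and TST to GSR overlapped in their ranges, as did SRXN1 and GCLC, and so neighbours did not differ beyond their spread. The ends of that run were apart, as TXNRD1 (lowest library 49.7) lay above GSR (highest library 48.3). GSR (lowest library 26.7) in turn lay above SRXN1 (highest library 25.3). The order rests on the median transcript length. With the longest transcript in its place GSR came to 17.8 CPM per kb, below SRXN1, and NQO1 to 74.2, with a range of 59.2 to 102 that then overlapped those of TXNRD1, MPST and TST. In CPM without regard to length, TXNRD1 and NQO1 stood above 93% and 92% of the 10005 genes tested, and GCLM above 29.3%.

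**Figure D1:**
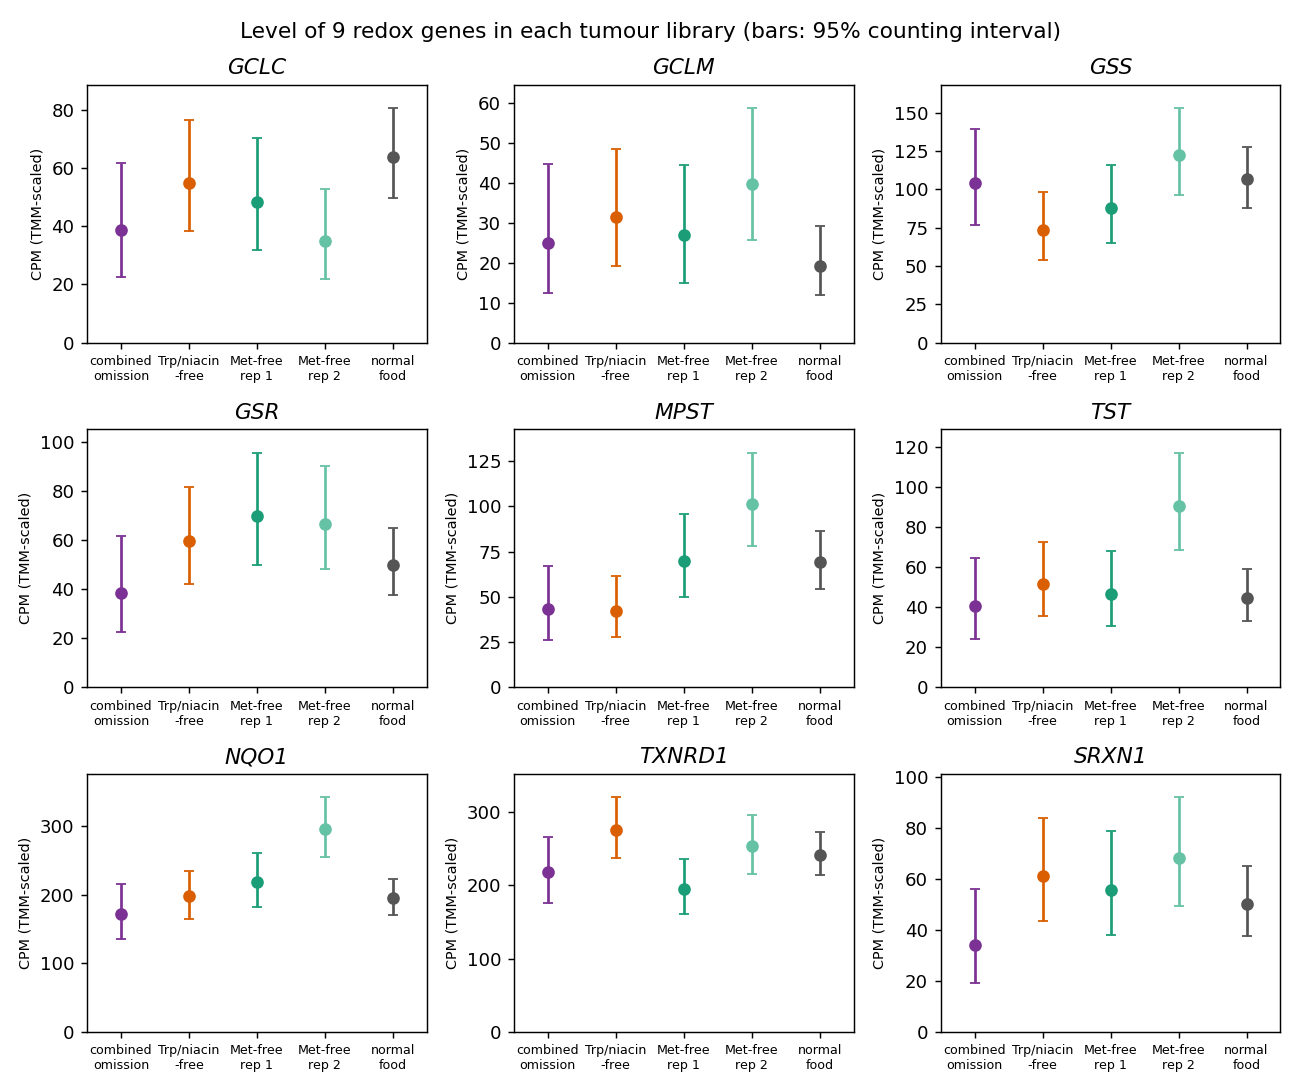
Level of each of the 9 measured members in CPM (y axis, from 0) in each library (x axis), where points are single libraries and bars are 95% exact counting intervals. In 6 of the 9 panels (GCLM, GSS, MPST, TST, NQO1 and SRXN1) the highest point is methionine-free replicate 2, and in 4 (GSR, TST, NQO1 and SRXN1) the lowest is the combined omission.

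The entry enzymes of transsulfuration had counts at or near the detection limit. CBS, cystathionine beta-synthase, which joins homocysteine to serine, had 0 counts in the combined-omission, tryptophan/niacin-free and both methionine-free libraries and 1 count on normal food. Taken as a floor of 3 counts, a count of 0 allows a level of up to 6.81 CPM in the combined omission, 4.71 CPM in the tryptophan/niacin-free library, and 5.38 and 4.76 CPM in methionine-free replicates 1 and 2. The single count on normal food corresponds to 0.909 CPM. By the wider exact 95% counting interval the upper limits are 8.37 CPM in the combined omission, 5.79 CPM in the tryptophan/niacin-free library, 6.61 and 5.85 CPM in the methionine-free libraries, and 5.07 CPM on normal food. No difference in CBS was detectable at this depth, and no fold change is given. CTH, cystathionine gamma-lyase, the next enzyme of the route, was also below the filter, with 0 counts in the combined omission, 3 in the tryptophan/niacin-free library, 2 and 5 in the methionine-free libraries and 1 on normal food. The CBS gene has a near-identical copy, CBSL, in the GRCh38 annotation, but the build named for these counts is the older hg19. The way reads with several positions were counted is not given in the sources used here. HT-29 cells are known to make CBS protein, and whether these counts reflect low expression or uncounted reads was not tested. U2AF1, a splicing factor gene beside CBS that likewise has a GRCh38 copy, had 33 counts in the combined omission, 50 in the tryptophan/niacin-free library, 42 and 44 without methionine, and 73 on normal food. Whether that bears on the counts of CBS was not tested.

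MPST, which releases sulfide sulfur from 3-mercaptopyruvate, a product of cysteine, showed the widest spread of the members. It stood at 43.1 CPM in the combined omission and 42.4 CPM in the tryptophan/niacin-free library, against 69.9 and 101.5 CPM in methionine-free replicates 1 and 2 and 69.1 CPM on normal food. Both libraries without tryptophan and niacin were thus below all 3 libraries that had them. Against methionine-free food, the log2 difference was -0.99 in the combined omission (SE 0.49, edgeR unadjusted p = 0.0446, adjusted p = 0.643) and -1.02 in the tryptophan/niacin-free library (SE 0.47, unadjusted p = 0.0288, adjusted p = 0.992). These comparisons share the methionine-free libraries. Averaged over methionine status, tryptophan/niacin omission gave -0.85 (SE 0.33, unadjusted p = 0.0238, adjusted p = 1.0). None of these passed the threshold of 0.05 over the 10005 genes. Between lone libraries, which have no replicate check, the tryptophan/niacin-free count was 0.613 times that of normal food, with a 95% exact interval of 0.380 to 0.962.

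TST, or rhodanese, which passes sulfur from thiosulfate to acceptors such as cyanide, lies head to head with MPST. It stood at 40.8 CPM in the combined omission, 51.8 CPM in the tryptophan/niacin-free library, 46.6 and 90.4 CPM without methionine, and 44.6 CPM on normal food. Methionine-free replicate 2 was apart from the other libraries here, at 1.94 times the count of replicate 1 after scaling (95% exact interval 1.20 to 3.22). Methionine-free against normal food gave a log2 fold change of 0.63 (SE 0.43, adjusted p = 0.788), and without replicate 2 the value was 0.06. The genes overlap by 549 bases on opposite strands in GENCODE 29, and the strand setting of the counting is not given, so reads in that stretch could have gone to either gene. MPST had 1.06 times the counts of TST in the combined omission, 0.818 times in the tryptophan/niacin-free library, 1.5 and 1.12 times in the methionine-free libraries and 1.55 times on normal food, with overlapping intervals.

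Glutamate-cysteine ligase, the first and rate-limiting enzyme of glutathione synthesis, is made of the catalytic subunit GCLC and the modifier subunit GCLM. GCLC stood at 38.6 CPM in the combined omission, 54.9 CPM in the tryptophan/niacin-free library, 48.4 and 34.9 CPM without methionine, and 63.6 CPM on normal food, which was the highest library. GCLM stood at 24.96 CPM in the combined omission, 31.4 CPM in the tryptophan/niacin-free library, 26.9 and 39.7 CPM without methionine, and 19.1 CPM on normal food, the lowest library. The highest and lowest libraries, normal food and methionine-free replicate 2, were thus exchanged between both genes. The remaining libraries had the same order in both. Methionine-free against normal food gave the largest difference in each direction among the members, 0.80 for GCLM (SE 0.54, adjusted p = 0.780) and -0.62 for GCLC (SE 0.43, adjusted p = 0.790). Their 95% intervals, 0.838 to 3.64 times for GCLM and 0.364 to 1.17 times for GCLC, both held 1.

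The balance of both subunits can be read within a library, where depth and scaling cancel. GCLC had 1.55 times the counts of GCLM in the combined omission (95% exact interval 0.683 to 3.65), 1.75 times in the tryptophan/niacin-free library (0.983 to 3.20), 1.80 times (0.924 to 3.64) and 0.880 times (0.473 to 1.63) in methionine-free replicates 1 and 2, and 3.33 times on normal food (2.02 to 5.72). The normal library had the highest ratio, and its interval met those of the others except methionine-free replicate 2. These ratios were chosen after their values were seen and were not tested.

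GSS, glutathione synthetase, adds glycine in the last step of synthesis. It stood at 104 CPM in the combined omission, 73.7 CPM in the tryptophan/niacin-free library, 87.8 and 122 CPM without methionine, and 106 CPM on normal food. The combined-omission and normal libraries lay within the span of the methionine-free pair, and the tryptophan/niacin-free library lay below it. Its count was 0.693 times that of normal food between those lone libraries (0.483 to 0.980). The combined omission differed from methionine-free food by -0.01 (95% interval -0.87 to 0.85 on the log2 scale).

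GSR, glutathione reductase, regenerates reduced glutathione with NADPH. It stood at 38.6 CPM in the combined omission, 59.6 CPM in the tryptophan/niacin-free library, 69.9 and 66.6 CPM without methionine, and 50 CPM on normal food. The methionine-free pair agreed most closely for this gene, at 68.3 ± 2.31 CPM (SD, n = 2), and lay above the other 3 libraries. The differences did not pass the test, either for methionine-free against normal food (0.45, SE 0.43, adjusted p = 0.869) or for the combined omission against methionine-free food (-0.82, SE 0.51, adjusted p = 0.741). These SEs rest on a spread shared over genes, so the closeness of the pair for GSR did not enter them.

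Of the 3 NRF2 effector genes, NQO1 and TXNRD1 had the most counts of all members and so the smallest counting error. NQO1, which reduces quinones by a direct transfer of both electrons, stood at 172 CPM in the combined omission, 198 CPM in the tryptophan/niacin-free library, 219 and 297 CPM without methionine, and 196 CPM on normal food. The methionine-free libraries were the highest pair, and replicate 2 had 1.36 times the count of replicate 1 (1.07 to 1.72). Methionine-free against normal food gave 0.40 (SE 0.44, adjusted p = 0.893), and the combined omission against methionine-free food gave -0.58 (SE 0.46, adjusted p = 0.801).

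TXNRD1, the cytosolic selenoenzyme that reduces thioredoxin, varied least. It stood at 218 CPM in the combined omission, 276 CPM in the tryptophan/niacin-free library, 195 and 254 CPM without methionine, and 242 CPM on normal food. The methionine-free pair spanned the normal and combined-omission libraries. Its coefficient of variation over the 5 libraries was 13.2%, beside 8.23% expected from counting alone. For MPST these were 37.3% and 15.6%. Its interval for methionine-free against normal food ran from 0.516 to 1.67 times, so changes inside that span cannot be seen in this design. EID3, a gene listed in the same files, lies within TXNRD1 on the same strand.

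Set against each other within a library, TXNRD1 had 1.26 times the counts of NQO1 in the combined omission (0.925 to 1.73), 1.40 times in the tryptophan/niacin-free library (1.11 to 1.77), 0.893 times (0.684 to 1.17) and 0.856 times (0.688 to 1.06) in methionine-free replicates 1 and 2, and 1.24 times on normal food (1.03 to 1.49). Both methionine-free libraries were below 1 and the other 3 above it. The intervals of the tryptophan/niacin-free library and methionine-free replicate 2 did not meet, and all other methionine-free intervals met those of the remaining diets. This ratio was picked after seeing the values and not tested, and the genes differ in transcript length, which moved with the libraries as described further on.

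SRXN1, sulfiredoxin, repairs overoxidised peroxiredoxins. It stood at 34.0 CPM in the combined omission, 61.2 CPM in the tryptophan/niacin-free library, 55.6 and 68.2 CPM without methionine, and 50 CPM on normal food. The combined omission was the lowest library, below both methionine-free libraries, with a log2 difference of -0.86 (SE 0.53, adjusted p = 0.733). Between lone libraries it had 0.681 times the count of normal food (0.357 to 1.22) and 0.556 times that of the tryptophan/niacin-free library (0.285 to 1.03), and both intervals held 1.

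**Figure D2:**
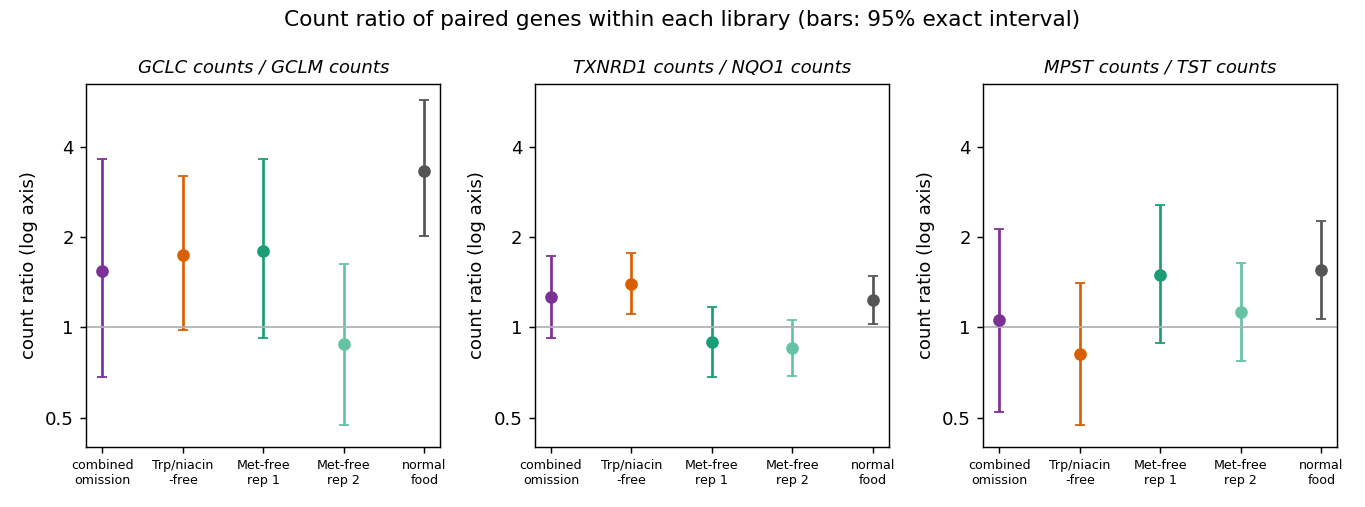
Ratio of the counts of GCLC to GCLM, TXNRD1 to NQO1 and MPST to TST within each library (log axis), where points are single libraries and bars are 95% exact intervals. The TXNRD1 to NQO1 ratio is 0.893 and 0.856 in the methionine-free libraries and 1.24 to 1.40 in the others, and the GCLC to GCLM ratio is highest, at 3.33, on normal food.

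The antioxidant response element has the core TGACNNNGC, and promoter sequence of 6 of the 10 members (CBS, GCLC, GCLM, NQO1, TXNRD1 and SRXN1) was at hand in the RefSeq promoter set of GRCh38.p14. Searched on both strands in windows of 250 bases before and 50 after each annotated start, the core was present in 4 of the 9 windows of these genes, which belong to CBS, GCLM and TXNRD1, against 13.4% of all 35116 windows of that length. The windows of GCLC, NQO1 and SRXN1 held no match. Sequence farther from the starts was not searched, so a core outside the windows would be missed. The pattern fixes all letters but the N positions, so any matches share the rest by definition. The match of CBS read TGACCGCGC, and those of the first TXNRD1 start read TGACTTCGC and TGACGGAGC. The stretches before the starts of GCLM and of the second TXNRD1 transcript start are printed as examples, 5′ to 3′ on the coding strand with the match in capitals. Both matches lie on the strand opposite to the gene, reading TGACTAAGC at -34 to -26 from the GCLM start and TGACAAAGC at -102 to -94 from that of TXNRD1, and a match is a description of letters and not a bound site.
GCLM promoter, chr1:93909431-93909680, minus strand: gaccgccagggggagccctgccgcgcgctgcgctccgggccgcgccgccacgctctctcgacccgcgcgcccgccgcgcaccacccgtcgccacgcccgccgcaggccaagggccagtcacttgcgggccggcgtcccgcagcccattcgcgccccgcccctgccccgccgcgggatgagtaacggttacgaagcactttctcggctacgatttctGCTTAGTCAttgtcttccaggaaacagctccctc
TXNRD1 second start, chr12:104286782-104287031, plus strand: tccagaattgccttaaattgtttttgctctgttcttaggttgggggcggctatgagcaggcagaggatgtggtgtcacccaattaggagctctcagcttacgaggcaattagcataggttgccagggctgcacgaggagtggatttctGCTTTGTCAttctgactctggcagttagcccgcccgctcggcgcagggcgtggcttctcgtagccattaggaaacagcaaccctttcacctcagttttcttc

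The comparisons over all members asked how tumours on each restricted food differed from each other and from tumours on normal food. In the combined omission all 9 tested members lay below their methionine-free level. The median log2 difference was -0.58, with a range of -0.99 (MPST) to -0.01 (GSS), beside -0.02 over all 10005 genes. None passed edgeR's test at an adjusted p of 0.05 (0 of 9, smallest adjusted p = 0.643), and 0.03% of all genes did. At an unadjusted p below 0.05 there was 1 member, MPST, against 7.59% of all genes. Without methionine-free replicate 2 the median was -0.32 and 2 of the 9 were above 0. Title styles differ between these libraries.

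For the tryptophan/niacin-free library against methionine-free food, whose titles share a style, 2 of the 9 lay above 0 and 7 below, with a median of -0.19 beside -0.01 over all genes. No member passed, with 1 (MPST) at an unadjusted p below 0.05, and 0% of all genes were called by edgeR, DESeq2 or limma-voom, with 491 genes (4.91%) at an unadjusted p below 0.05 in edgeR. Without methionine-free replicate 2 the median was 0.14 and 5 of the 9 were above 0, so the direction of the group rests on that library.

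Methionine-free against normal food gave a median of 0.32 beside 0.0028 over all genes, with 6 of the 9 above 0. Again 0 of 9 passed (smallest adjusted p = 0.780), against 0.23% of all genes, each of them lower without methionine. At an unadjusted p below 0.05 there were 0 of 9, against 7.68%. Without methionine-free replicate 2 the median was 0.06. GCLC, TXNRD1 and GSS lay below 0, at -0.62, -0.11 and -0.01.

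**Figure D3:**
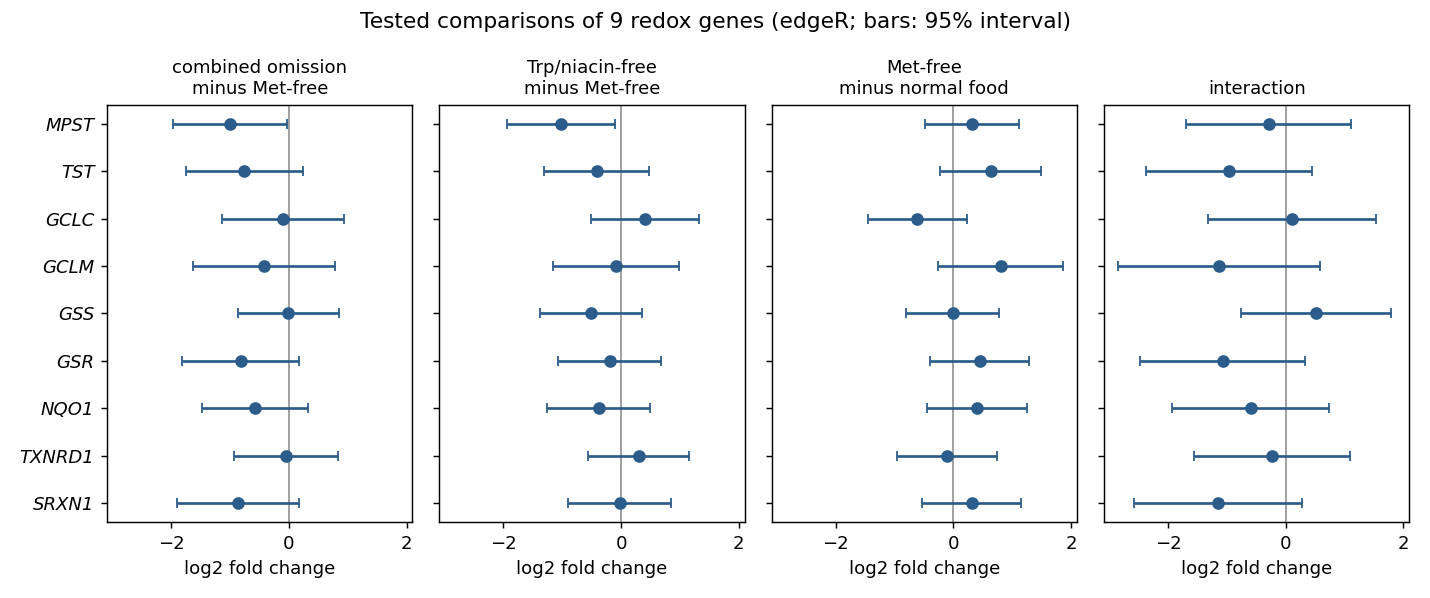
Log2 fold change of the 9 tested members (rows) in 4 tested comparisons (panels), where points are edgeR estimates and bars are 95% intervals. In the combined omission against methionine-free food all points are at or below -0.01, and the intervals of MPST in the first 2 panels are the only ones that leave out 0, at unadjusted p = 0.0446 and 0.0288.

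The interaction asks whether tryptophan and niacin bear on the effect of methionine omission, as that effect in their absence minus that effect in their presence. Its median over the members was -0.60 beside -0.02 over all genes, with 7 of the 9 below 0, from SRXN1 at -1.15 (SE 0.73, adjusted p = 0.881), GCLM at -1.13 and GSR at -1.07 to GSS at 0.52. Without methionine-free replicate 2 the median was -0.35. No member passed, against 0.43% of all genes, 42 higher and 1 lower, and 0 of 9 had an unadjusted p below 0.05, against 6.45%. Averaged over the other omission, methionine omission gave a median of 0.15 (6 of 9 above 0) and tryptophan/niacin omission one of -0.27 (2 of 9 above 0). Both turned with a library left out. Methionine omission gave -0.34 without the normal library (2 of 9 above 0) and -0.0060 without methionine-free replicate 2 (4 of 9), and tryptophan/niacin omission gave 0.19 without the combined omission (6 of 9). Without the normal or the tryptophan/niacin-free library the median of tryptophan/niacin omission was -0.58. The median of methionine omission was 0.32 when either the combined-omission or the tryptophan/niacin-free library was left out. In both averaged effects 0 of 9 members and 0% of all genes were called by edgeR, DESeq2 or limma-voom, with 172 (1.72%) and 164 genes (1.64%) at an unadjusted p below 0.05 in edgeR, among them 0 members and 1 member (MPST). The pairwise tests and the interaction take their spread from the methionine-free pair, pooled over genes, and each lone library was assumed to vary like it. The averaged effects have 2 residual degrees of freedom, of which the methionine-free pair gives 1 and the departure of the diets from additivity the other.

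Lone libraries were compared by size, as a difference of at least 2-fold with an exact interval of the count ratio that leaves out 1. By that rule 0 of the 9 members differed between the combined omission and normal food, where 2.02% of all genes did, 0 of 9 between the tryptophan/niacin-free library and normal food (3.52%), and 0 of 9 between the combined omission and the tryptophan/niacin-free library (4.04%). The same rule picked 0 of 9 members and 6.6% of genes between the methionine-free libraries, which had the same food. The interval alone left out 1 for 0 of 9 members in the combined omission against normal food (8.13% of all genes), 2 of 9, GSS and MPST, in the tryptophan/niacin-free library against normal food (14.1%), 0 of 9 in the combined omission against the tryptophan/niacin-free library (11%), and 3 of 9, TST, NQO1 and TXNRD1, between the methionine-free libraries (20.7%). The median log2 difference of the members was -0.18 for the combined omission against normal food, with 1 of the 9 above 0 (GCLM at 0.34), and 0.19 for the tryptophan/niacin-free library against normal food, with 6 of the 9 above 0. It was -0.32 for the combined omission against the tryptophan/niacin-free library, where GSS (0.49) and MPST (0.02) were above 0. These comparisons share libraries with each other and with the tests above.

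Replicate 2 of the methionine-free pair was above replicate 1 in 7 of the 9 members, with a median log2 difference of 0.44 beside 0.01 over all genes. Among all tested genes with a known transcript length (9501), this difference followed length, with medians of 0.36, 0.10, -0.10 and -0.35 in 4 equal groups from the shortest to the longest transcripts. MPST, TST, GSR and NQO1 belong to the group of shortest transcripts, and TST at 0.91, MPST at 0.52 and NQO1 at 0.44 lay above its median while GSR at -0.07 lay below. GCLM (0.51) and TXNRD1 (0.37) have longer transcripts, in the group with a median of -0.10, and were above 0 all the same. GCLC, at -0.44, was the member furthest below 0. After a correction for transcript length, the median of the members was -0.41 for the combined omission against methionine-free food, -0.05 for the tryptophan/niacin-free library against methionine-free food, and 0.20 for methionine-free against normal food, with 0 of 9 called in each.

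**Figure D4:**
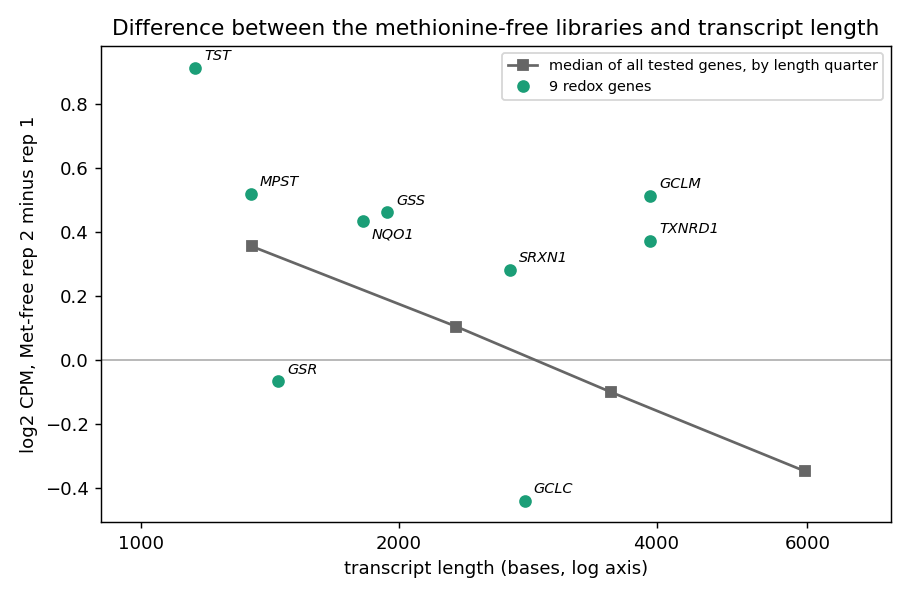
Log2 CPM difference between methionine-free replicates 2 and 1 (y axis) against transcript length in bases (x axis, log scale), where green points are the 9 members and grey squares joined by a line are medians of all tested genes in 4 groups by length. The line runs from 0.36 for the shortest to -0.35 for the longest, and 7 of the 9 members lie above 0.

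Upstream of the effectors, the transcription factor gene itself differed little in level between diets. NFE2L2, which encodes NRF2, stood at 99.8 CPM in the combined omission, 116 CPM in the tryptophan/niacin-free library, 91.4 and 96.8 CPM without methionine, and 94.6 CPM on normal food. The differences between diets were at most 0.30 in size on the log2 scale in the pairwise tests, for instance 0.08 (SE 0.44) for the combined omission against methionine-free food. KEAP1, the adaptor that marks NRF2 for degradation, stood at 72.6 CPM in the combined omission, 54.9 CPM in the tryptophan/niacin-free library, 46.6 and 68.2 CPM without methionine, and 42.7 CPM on normal food. SQSTM1, the autophagy receptor that sequesters KEAP1 and the most abundant of the 15 regulators, stood at 486 CPM in the combined omission, 383 CPM in the tryptophan/niacin-free library, 326 and 412 CPM without methionine, and 511 CPM on normal food. By edgeR's test 0 of the 15 regulators passed in any tested comparison, and DESeq2 and limma-voom called 0. At an unadjusted p below 0.05 in edgeR there were 0 to 2, against 1.64% to 7.68% of all genes. PALB2, a KEAP1-binding DNA repair protein, had 6 counts in the combined omission against 36 on normal food, which met the size rule at -1.11 (2.02% of all genes).

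The list for cystine and cysteine transport held 9 transporter genes, some of which mainly carry other substrates, and 7 were tested. In edgeR's tests 0 of the 7 passed in any of the 6 comparisons, and DESeq2 and limma-voom likewise called 0. At most 1 had an unadjusted p below 0.05 in edgeR in each, against 1.64% to 7.68% of all genes. SLC7A11, the cystine/glutamate antiporter, stood at 68.1 CPM in the combined omission, 67.4 CPM in the tryptophan/niacin-free library, 50.2 and 47.6 CPM without methionine, and 87.3 CPM on normal food. Both methionine-free libraries were below the rest, and methionine-free against normal food gave -0.83 (SE 0.41, unadjusted p = 0.0437, adjusted p = 0.638). With 9645 bases SLC7A11 belongs to the group of longest transcripts, whose median was -0.35 in methionine-free replicate 2 against replicate 1. The part of length in its difference was not tested. SLC3A1, a heavy chain of dibasic amino acid and cystine transport, stood at 77.2 CPM in the combined omission and 29.8 CPM in the tryptophan/niacin-free library, against 100.4 and 65.0 CPM without methionine and 62.7 CPM on normal food. The tryptophan/niacin-free library was apart from all others, beyond the size rule against normal food at -1.0 (3.52% of all genes) and below the combined omission, which lay 1.29 above it and beyond the rule (4.04%), and short of the test against methionine-free food (-1.46, SE 0.50, adjusted p = 0.795). SLC7A11, NFE2L2 and KEAP1 were named for their place in the pathway after their values were seen. SLC1A5, a glutamine carrier, was the most abundant of the list at 601 CPM in the combined omission, 422 CPM in the tryptophan/niacin-free library, 470 and 398 CPM without methionine, and 426 CPM on normal food.

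Over all lists together, members included, 118 genes were tested, and edgeR, DESeq2 and limma-voom each called 0 of them in each of the 6 tested comparisons. At an unadjusted p below 0.05 in edgeR there were 13 for the combined omission against methionine-free food, beside 7.59% of all genes. There were 8 for the tryptophan/niacin-free library against methionine-free food (4.91% of all genes) and 6 for methionine-free against normal food (7.68%). The interaction had 5 (6.45%), and methionine and tryptophan/niacin omission averaged had 0 and 2 (1.72% and 1.64%). The length correction called 1, ABCC3, an export pump for conjugates, for the combined omission against methionine-free food (0.94, adjusted p = 0.0208; 1.02, adjusted p = 0.643 without it). That correction also raised the number called over all genes, as given further on. The list of glutathione peroxidases, transferases and glutaredoxins had 20 of its 31 genes tested. Its median was -0.39 for the combined omission against methionine-free food, with 3 of the 20 above 0, and 0.64 for methionine-free against normal food, with 17 of the 20 above 0. The same list was higher in methionine-free replicate 2 than in replicate 1 in 20 of 20 genes, with a median of 0.53. Except for GSTCD, GLRX3 and GLO1, its tested genes of known length belong to the group of shortest transcripts, up to 1861 bases. That group had a median of 0.36 between the same replicates over all genes. The part of transcript length in the medians of this and the following lists was not tested. GSTP1, a transferase that conjugates electrophiles to glutathione, was the most abundant gene of the list. It stood at 635 CPM in the combined omission, 557 CPM in the tryptophan/niacin-free library, 602 and 1026 CPM without methionine, and 504 CPM on normal food. Among these genes GPX3, the secreted glutathione peroxidase, had 6 counts in the tryptophan/niacin-free library against 31 on normal food, and GLRX, a glutaredoxin, had 13 in the combined omission against 6 in the tryptophan/niacin-free library. Both met the size rule, which picked 3.52% and 4.04% of all genes in these comparisons and 6.6% between the methionine-free libraries.

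The thioredoxin and peroxiredoxin list, with 21 of 24 genes tested, had a median of -0.33 for the combined omission against methionine-free food (3 of 21 above 0) and 0.31 for methionine-free against normal food (15 of 21 above 0). Methionine-free replicate 2 was above replicate 1 in 18 of the 21, with a median of 0.37. Its most abundant gene PRDX1, a peroxide-reducing enzyme and a substrate of SRXN1, stood at 422 CPM in the combined omission, 417 CPM in the tryptophan/niacin-free library, 461 and 571 CPM without methionine, and 364 CPM on normal food. TXNRD3, a thioredoxin-glutathione reductase, had 2 counts in the tryptophan/niacin-free library against 20 on normal food, a scaled count 1.41-fold to 51.2-fold lower. It met the size rule, as did 3.52% of all genes. The further NRF2 targets, with 29 of 37 tested, had medians of -0.33 (7 of 29 above 0) and 0.35 (20 of 29 above 0) in the same comparisons, and replicate 2 was above replicate 1 in 23 of the 29 (median 0.33). Their most abundant gene was FTH1, the ferritin heavy chain, with 1956 CPM in the combined omission, 2039 CPM in the tryptophan/niacin-free library, 2613 and 3103 CPM without methionine, and 2560 CPM on normal food.

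Glutathione synthesis and turnover, with 13 of 17 genes tested and led by SLC25A39, the mitochondrial glutathione importer, had medians of -0.42 for the combined omission against methionine-free food and 0.23 for methionine-free against normal food, with replicate 2 above replicate 1 in 5 of the 13 (median -0.07). SLC25A39 stood at 193 CPM in the combined omission, 191 CPM in the tryptophan/niacin-free library, 202.5 and 320 CPM without methionine, and 224 CPM on normal food. The transsulfuration and sulfide list (13 of 17 tested) had medians of -0.28 and 0.32 in these comparisons, with replicate 2 above replicate 1 in 12 of the 13 (median 0.49). GOT2, the mitochondrial aspartate aminotransferase and its most abundant gene, stood at 134 CPM in the combined omission, 154 CPM in the tryptophan/niacin-free library, 158 and 163 CPM without methionine, and 110.0 CPM on normal food. Superoxide dismutases and catalase (4 of 5 tested) had medians of -0.12 and 0.29, with replicate 2 above replicate 1 in 4 of the 4 (median 0.55). SOD1, the cytosolic dismutase, stood at 90.8 CPM in the combined omission, 67.4 CPM in the tryptophan/niacin-free library, 109 and 144 CPM without methionine, and 97.3 CPM on normal food.

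Genes were also ranked by how closely their log2 CPM followed the mean of the 9 members over the 5 libraries. That mean lay at -0.29 in the combined omission, -0.01 in the tryptophan/niacin-free library, 0.00 and 0.34 in the methionine-free libraries and -0.03 on normal food, each relative to the average over libraries. Among 4821 genes with a mean of at least 50 CPM the closest were YWHAZ (Pearson r = 0.999), PRPF4 (0.998) and IMP4 (0.998). Each r is over 5 points that share library and depth. An r of at least 0.9 was reached by 408 genes, 8.46% of those compared, so the pattern of the members was a common one in these libraries.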

How the data were processed

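The authors deposited expected counts per gene symbol, estimated counts that need not be whole, for each tumour library. Decimals were present in 15.2% to 17.6% of the non-zero values. Per the labels' protocols, the mRNA kit was a stranded one. Named in the submitters' processing notes are featureCounts, Subread 2.0.0, SAMtools 0.1.18, Bowtie2 2.2.8, TopHat2 2.1.1 and the genome build hg19. Not given in the sources used here are the annotation, the strand setting, the handling of reads with several positions and any separation of mouse reads.

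Expected counts were rounded. filterByExpr kept 10005 of 26364 genes. edgeR 4.0.16 (R 4.3.3, limma 3.58.1) gave quasi-likelihood tests with TMM factors of 0.929 to 1.04 and Benjamini-Hochberg adjustment over all tested genes (threshold 0.05). A model with 1 mean per diet had 1 residual degree of freedom (biological coefficient of variation 0.207), and an additive model of both omissions had 2 (0.227). Prior degrees of freedom were infinite in the former, so the spread of each gene was replaced by one shared over genes. They were 10.2 in the latter. Lone libraries were compared by the size rule, with a prior count of 2. The floor for a count of 0 was 3 counts. DESeq2 1.42.0 and limma-voom were alternatives.

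Transcript lengths are medians of GENCODE 29 transcripts that have a RefSeq counterpart. Promoters are from RefSeq on GRCh38.p14. Named genes were the 10 members, and from each list those past a threshold and the most abundant, with exceptions stated. The members and the gene lists were chosen with earlier results of these data known.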

Additional observations from a re-analysis of the deposited data

How the results depend on the processing

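Under total-count scaling, other size factors, no low-count filter, DESeq2, limma-voom, a transcript-length correction and each library left out in turn, the number of members called was 0 in each of the 6 tested comparisons, wherever a test could be made. The smallest adjusted p of a member under these settings was 0.560 (SRXN1, combined omission against methionine-free food, length correction). Without either methionine-free library the 1 mean per diet model has no residual degree of freedom, so these are values with no test. Of the member results recomputed, 531 were graded the same, 33 reversed, none of them called, and 3 moved. The 3 are TST without methionine-free replicate 2, at 0.06 for methionine-free against normal food, 0.15 for tryptophan/niacin-free against methionine-free food and -0.19 for the combined omission against methionine-free food. With a test, the same grade meant the same direction and side of the threshold. Where no test could be made, it meant a value within the SE or interval of the main value, whatever its sign. Signs did turn there. Without methionine-free replicate 2, members above 0 went from 0 to 2 for the combined omission against methionine-free food. For tryptophan/niacin-free against methionine-free food they went from 2 to 5. With a 1.5-fold size threshold 1 member, MPST, differed between the tryptophan/niacin-free and normal libraries, among 876 genes in all.

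Reversed log2 values under total-count scaling were 0.0156 for GCLM and 0.0869 for SRXN1 (tryptophan/niacin-free against methionine-free food), 0.0651 for GSS and 0.0307 for TXNRD1 (combined omission against methionine-free food) and -0.0016 for GSR (methionine omission averaged). Under limma-voom GSS reached 0.0123 for the combined omission against methionine-free food. Under the length correction they were 0.0137 for TXNRD1 (methionine-free against normal food), 0.0633 for GSR (tryptophan/niacin-free against methionine-free food), 0.13 for GSS (combined omission against methionine-free food), 0.0113 for MPST (interaction), -0.0922 for GSR (methionine omission averaged) and -0.0020 for TXNRD1 (tryptophan/niacin omission averaged). The cause of these was not tested. With single libraries left out, the averaged effect of methionine omission ran from -0.62 to 0.45 for GSR, -0.34 to 0.63 for TST, -0.20 to 0.40 for NQO1, -0.33 to 0.80 for GCLM, -0.0150 to 0.50 for GSS and -0.84 to 0.31 for SRXN1. That of tryptophan/niacin omission ran from -0.0455 to 0.19 for TXNRD1, -0.75 to 0.22 for TST, -0.42 to 0.71 for GCLM, -0.82 to 0.25 for GSR, -0.58 to 0.0158 for NQO1 and -0.86 to 0.29 for SRXN1.

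Counts over all genes moved more. For methionine-free against normal food edgeR called 23 genes, DESeq2 1 and the length correction 99. For the combined omission against methionine-free food the 3 became 6 with total-count scaling, 9 with limma-voom, 0 with DESeq2 and 72 with the length correction. The 43 of the interaction became 2 with DESeq2 and 124 with the length correction, which also called 8 genes for tryptophan/niacin-free against methionine-free food, where 0 had been called. Leaving out 1 lone library from the averaged effects gave 6 to 25 genes for methionine omission and 3 to 20 for tryptophan/niacin omission. No paired analysis was possible because only 1 diet has more than 1 library. GCLM rests on 11 to 25 counts a library, and with 1 replicated diet the tests borrow their spread from a pair of libraries that differ along transcript length.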

Other observations

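HMOX1, the heme oxygenase gene and a further NRF2 target, was singled out after its values were seen. It stood at 18.2 CPM in the combined omission, 6.27 CPM in the tryptophan/niacin-free library, 5.38 and 6.35 CPM without methionine, and 6.36 CPM on normal food. The combined omission was the highest library, but these levels are 8, 4, 3, 4 and 7 counts in that order. The log2 difference of the combined omission from methionine-free food was 1.60 (SE 1.00, edgeR adjusted p = 0.744).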
